A study of Rattus norvegicus with 4 samples.

Results

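Open chromatin regions (OCRs) of rat retinal ganglion cells (RGCs) that were called in exactly 3 of 4 ATAC-seq libraries are described here. OCRs of the 4 lists on the numbered chromosomes sharing at least 1 bp were merged into 1 region, which belonged to the set when the lists of exactly 3 libraries had an OCR in it. The members were thus chosen by the calls themselves, so counts of calls and their strength are a description, with no test. Of 224715 regions, 28082 were members, which is 12.5% of all regions. Another 81097 regions were called in all 4 libraries, 53927 in 2 and 61609 in 1.

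The libraries came from rat RGCs, immunopanned from retinas of embryonic day 21 (E21) and of postnatal day 11 (P11). Each stage had 2 libraries from independent litters, with 300000 cells per library frozen before the assay. The animals were Sprague Dawley by the study's methods, and no treatment or genetic change is described. The study set out to learn how accessibility changes while these neurons lose their capacity for axon growth. Lists of OCRs carry no marker gene levels, so the purity of the RGCs could not be checked here.

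RGCs are the only neurons that carry visual signals out of the eye, and their axons form the optic nerve. In ATAC-seq a transposase cuts and tags DNA that is not tightly packed by nucleosomes, and a local pile of tagged fragments is called as an OCR. Such places include promoters and enhancers, where transcription factors bind. A weakly open place yields few fragments, so that it can pass the calling limit in 1 library and miss it in another of the same cells.

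The lists held 125917 and 154394 OCRs in E21 replicates 1 and 2, and 154772 and 166702 in P11 replicates 1 and 2, so E21 replicate 1 had the shortest list. The lowest −log10 q, the measure of confidence in an OCR after correction for multiple testing, was between 2.01 and 2.02 in every list. Depth was read from the lowest local background of each library, which was 4.80 and 5.03 fragments at E21 and 4.30 and 4.17 at P11. The lowest summit pileup, the number of fragments stacked at the highest point of an OCR, was 14 at E21 and 13 at P11.

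To learn which library missed the members, they were divided by the absent library. E21 replicate 1 was absent in 13141 members (46.8%) and E21 replicate 2 in 2160 (7.69%). P11 replicate 1 was absent in 7925 (28.2%) and P11 replicate 2 in 4856 (17.3%). Within both stages the shorter list was absent more often, by 6.08 times at E21 and 1.63 times at P11. Members made up 12.4% of the regions called by E21 replicate 1, 17.3% for E21 replicate 2, 13.6% for P11 replicate 1 and 14.5% for P11 replicate 2.

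Members called in both E21 libraries and 1 P11 library, termed E21-complete, numbered 12781 (45.5% of members). Those called in both P11 libraries and 1 E21 library, termed P11-complete, numbered 15301 (54.5%). The single calling library of the other stage is called the lone library. It was P11 replicate 2 in 62% of E21-complete members (95% Wilson interval 61.2 to 62.8%) and E21 replicate 2 in 85.9% of P11-complete members (85.3 to 86.4%). Intervals on shares of regions cover counting error only, and regions of 1 library are not replicates.

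There were 1.20 P11-complete members for each E21-complete member. Per absent library, this was 7650.5 ± 7765 P11-complete and 6390.5 ± 2170 E21-complete members (SD, n = 2 absent libraries each), so the difference of 1260 was smaller than either SD. The 2 classes of a kind share both libraries of the complete stage, so every SD over absent libraries given here is a spread between sets of regions, not between separate samples. The ratio turned below 1 under stricter lists, to 0.998 where −log10 q had to reach 5, 0.684 with equal numbers of OCRs (the best of each library, cut near the length of the shortest list) and 0.760 with a fold of at least 4, the last chosen after seeing the data. To leave out a library, the members lacking it and its own values were dropped. Its calls still defined the other members, so the lists were not merged afresh without it. Without E21 replicate 1 only 2160 P11-complete members were left, and the ratio of members per absent library was 0.338. Without E21 replicate 2 that ratio was 2.06. Without P11 replicate 1, 4856 E21-complete members were left and the ratio was 1.58, and without P11 replicate 2, 7925 were left and it was 0.965.

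**Figure D1:**
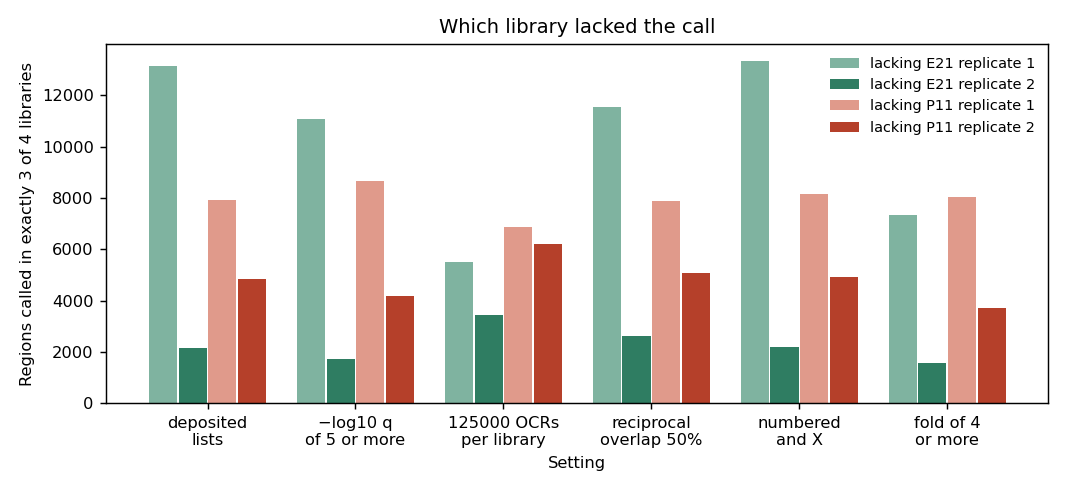
Number of regions called in exactly 3 of 4 libraries (vertical axis) by the library that lacked the call (colour), for the deposited lists and 5 other settings (horizontal axis). With the deposited lists 13141 members lacked E21 replicate 1, and with equal numbers of OCRs per library 5516 did.

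Equal list lengths brought the 4 classes closer to each other. With equal numbers of OCRs, those of highest −log10 q in each library, there were 22007 members, of which 5516 lacked E21 replicate 1, 3423 E21 replicate 2, 6847 P11 replicate 1 and 6221 P11 replicate 2. E21 replicate 2 was the library least often absent under each of the 6 settings plotted. P11 replicate 1 became the library most often absent with equal numbers and with a fold of at least 4, where it was absent in 8024 members and E21 replicate 1 in 7339.

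Each OCR was then ranked by −log10 q within its own list, as a percentile from 0 for the weakest to 100 for the strongest, and the best OCR of a library in a region set the rank of that region there. Because rank and presence come from the same measurement, ranks are given with no test. The median rank of members in the complete stage was 40.5 ± 0.74 for E21-complete and 43.1 ± 2.6 for P11-complete members (SD, n = 2 absent libraries). In the lone library the median rank was 25.9 ± 1.7 for E21-complete and 17.9 ± 6.1 for P11-complete members. Members therefore stood in the lower part of the lists, and lower in the lone library than in the complete stage. Regions called in all 4 libraries had median ranks of 64.9 and 72.0 in E21 replicates 1 and 2 and of 70.2 and 72.1 in P11 replicates 1 and 2.

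**Figure D2:**
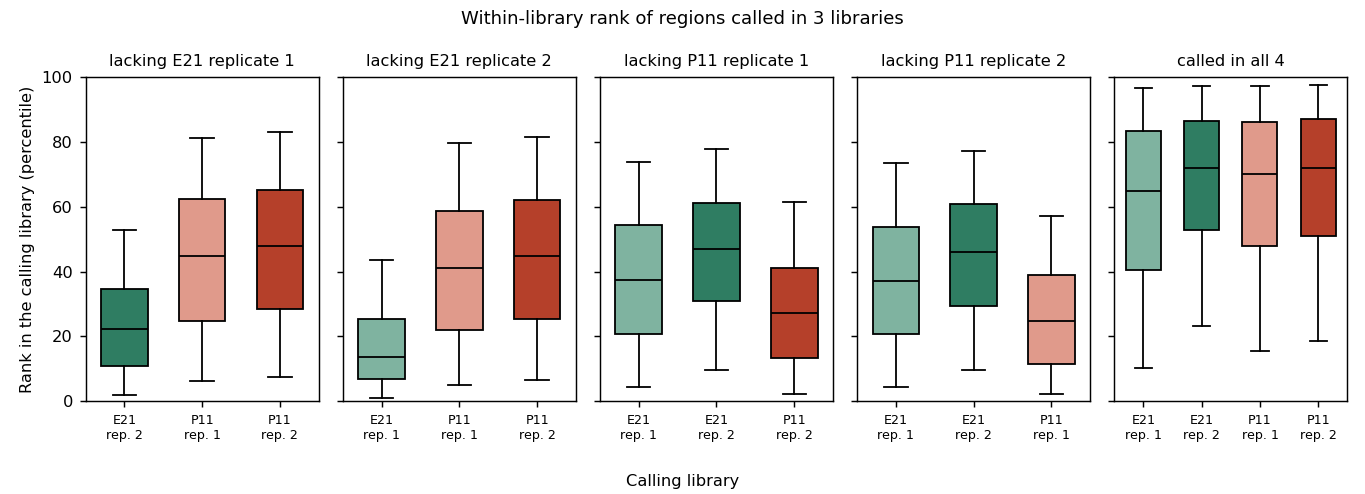
Within-library rank percentile (vertical axis) of members in each of their 3 calling libraries, in 1 panel per absent library, and of regions called in all 4 libraries in the last panel. Boxes span the 25th to 75th percentile of regions with the median as a line, and whiskers the 5th to 95th. The lone library sits lowest in each of the 4 member panels, with medians from 13.6 to 27.1.

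The lone library differed among the 4 classes. Its median rank was 22.2 when E21 replicate 2 was the lone caller and 13.6 when E21 replicate 1 was. It was 27.1 when P11 replicate 2 was the lone caller and 24.6 when P11 replicate 1 was. The P11-complete classes had lower lone ranks than the E21-complete classes, without overlap in the deposited lists. At a −log10 q of at least 5 the classes overlapped, with means of 18.4 ± 6.8 for P11-complete and 23.5 ± 1.5 for E21-complete members (SD, n = 2). Percentiles refer to lists of unequal length, so the same percentile is not the same −log10 q in each library.

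The rank gap, the mean rank in the complete stage minus the rank in the lone library, had a median of 21.4 points in members lacking E21 replicate 1 and 24.1 in those lacking E21 replicate 2. It was 12.7 points in members lacking P11 replicate 1 and 15 in those lacking P11 replicate 2. The stage means were 22.8 ± 1.9 points for P11-complete and 13.8 ± 1.6 for E21-complete members (SD, n = 2). In regions called in all 4 libraries the same 4 gaps were −0.90, 2.33, −1.49 and −0.52 points. In percentiles, P11-complete members had the larger gap under each setting that gave both values. The kinds came closest, at 15.8 and 13.4 points, when ranks were taken among members and regions called in all 4 libraries only. Medians of −log10 q instead lay further apart in E21-complete members, so the order depends on the scale. Members lacking E21 replicate 1 had 7.84 in the lone library, against 9.51 and 10.96 at P11. Members lacking P11 replicate 1 had 7.15, against 11.7 and 15.5 at E21. Regions called in all 4 libraries also had higher medians at E21, 28.0 and 37.4 against 18.2 and 21.1.

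The order of the 3 calling libraries was counted region by region. E21 replicate 2 as the lone caller was the lowest of the 3 in 68.2% of its members, against 36.6% of the regions called in all 4 libraries for the same 3 libraries. For E21 replicate 1 this was 72.7% against 49.0%. For P11 replicate 2 it was 57.8% against 35.6%, and for P11 replicate 1 it was 61.4% against 38.7%. The rule used these calls, so nothing is read from the difference. A lone library was the highest of the 3 in 11.6% and 7.82% of P11-complete members (lone E21 replicates 2 and 1) and in 19.99% and 17.2% of E21-complete members (lone P11 replicates 2 and 1).

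Summit pileups gave the same order in units of fragments. Members lacking E21 replicate 1 had a median pileup of 26 fragments in E21 replicate 2, and of 28 and 30 in P11 replicates 1 and 2. Members lacking P11 replicate 1 had 31 and 37 in E21 replicates 1 and 2, and 22 in P11 replicate 2. Fragments were fewer in the lone library of both classes, but the E21 libraries also had the higher background. Over the lowest background of each library, the medians were 5.16 against 6.51 and 7.20 in the first class, and 5.28 in P11 replicate 2 against 6.45 and 7.35 in the second. Members lacking E21 replicate 2 had a median pileup of 22 in E21 replicate 1, and of 27 and 29 at P11. Members lacking P11 replicate 2 had 31 and 37 at E21, and 21 in P11 replicate 1. Regions called in all 4 libraries had 53, 67, 42 and 45 fragments in the same libraries, E21 first.

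The authors' fold enrichment, the summit pileup over the local background with 1 added to both, showed members as modest openings. The median fold in the lone library was 3.81 for E21 replicate 2, 3.62 for E21 replicate 1, 3.96 for P11 replicate 2 and 3.77 for P11 replicate 1. In the complete stage it was 4.78 and 5.20 at E21 for members lacking P11 replicate 2, and 4.41 and 4.81 at P11 for members lacking E21 replicate 1. The local background lay under 3 times the lowest of its library, in all 3 calling libraries, for 94.2% to 95.1% of members of the 4 classes. In regions called in all 4 libraries the share was 83.0% to 84.2% for the same sets of 3 libraries, so members stood on a high local background less often than these.

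How near members stood to the calling limit was measured by their weakest call. The median −log10 q of the weakest calling library was 5.90 in members and 13.2 in regions called in all 4 libraries. It was under 5 in 9713 members (34.6%) and in 8649 regions called in all 4 (10.7%), and under 3 in 739 members (2.63%) and 546 of the others (0.673%). Regions called in 2 libraries were nearer to members, with a median of 6.67, 27.9% under 5 and 2.23% under 3, so weak calls were no mark of members alone. The weakest of 2, 3 or 4 calls was taken in these sets, and a minimum over more calls tends to be lower. The lone library had a −log10 q under 5 in 18.4% of members lacking E21 replicate 1, 30.8% of those lacking E21 replicate 2, 20.3% of those lacking P11 replicate 1 and 33.9% of those lacking P11 replicate 2.

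**Figure D3:**
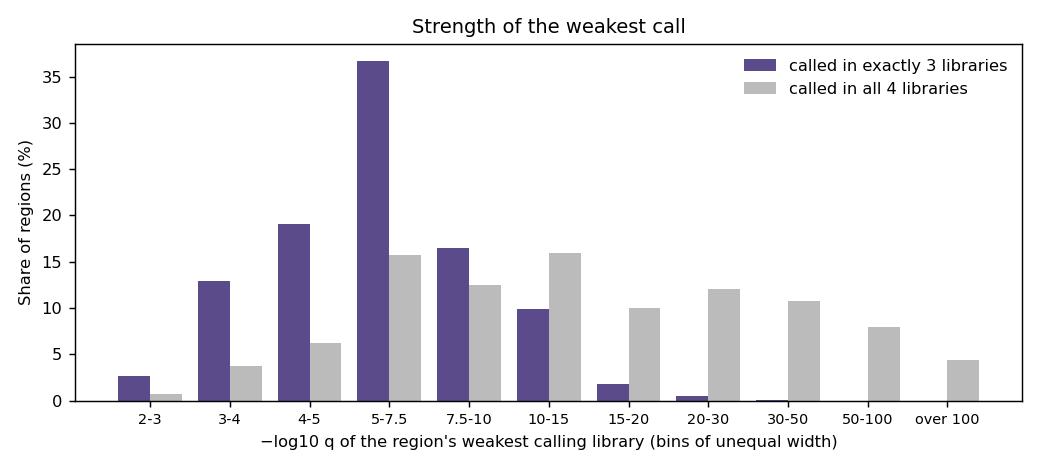
Share of regions in percent (vertical axis) by the −log10 q of the weakest calling library (horizontal axis, bins of unequal width), for members and for regions called in all 4 libraries. The bin from 5 to 7.5 holds 36.7% of members, and members above 30 are almost absent.

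Membership moved with the limit. At the stricter limit of 5, 18369 of the 28082 members were still called in 3 libraries, 8049 in 2, 1486 in 1 and 178 in none. In exchange, 7267 regions called in all 4 libraries at the deposited limit were called in 3. Most members thus stayed in the set, and merging the stricter lists afresh gave 25619 members.

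Just inside the limit, the member with the weakest call lay on chromosome 2 from 251695560 to 251696384. It lacked P11 replicate 1 and had a −log10 q of 2.01 in P11 replicate 2, 7.06 in E21 replicate 1 and 14.1 in E21 replicate 2. Just outside the set, a region on chromosome 3 from 148966668 to 148967415 was called in all 4 libraries with a −log10 q of 2.02 in E21 replicate 2, and 4.27 in E21 replicate 1, 6.26 in P11 replicate 1 and 5.21 in P11 replicate 2. Both sat at the limit in their weakest library.

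The share of regions that were members rose and fell with mean rank over the calling libraries. It was 6.98% of the regions with a mean rank under 20, 19.4% from 20 to 40, 19.6% from 40 to 60, 6.91% from 60 to 80 and 0.108% from 80 to 100. P11-complete members were 52.5% of the members in the lowest bin, then 53.6%, 55.3%, 59.0% and 59.3%. The 2 P11-complete classes went opposite ways. Of 3851 members in the lowest bin, 1626 lacked E21 replicate 1 and 397 lacked E21 replicate 2. Of 2194 members from 60 to 80, these were 1204 and 90, so only the class lacking E21 replicate 1 rose in share. The highest bin held only 27 members. Strong openings missing from exactly 1 library were therefore rare.

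Members ranked at 50 or above in all 3 calling libraries numbered 427 lacking E21 replicate 1, 17 lacking E21 replicate 2, 436 lacking P11 replicate 1 and 172 lacking P11 replicate 2. At 75 or above there were 1, 1, 10 and 2. These few are strong calls in 3 libraries with no call in the other library of a stage. By the rule for naming regions, the 2 members of highest mean rank in each class with low local background were described.

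Among members lacking E21 replicate 1, the region on chromosome 12 from 14338768 to 14339000 ranked highest. It had a pileup of 79 fragments in E21 replicate 2, 74 in P11 replicate 1 and 60 in P11 replicate 2, with folds of 13.3, 14.2 and 11.8. All 3 calling libraries ranked it above 80, and E21 replicate 1 had no OCR there. Next was a region on chromosome 15 from 31610947 to 31611933, with pileups of 49, 150 and 113 fragments in the same libraries. Here E21 replicate 2 was well below both P11 libraries, at ranks of 65.7 against 97.8 and 96.7.

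Among members lacking E21 replicate 2, the region on chromosome 13 from 52905260 to 52905621 had pileups of 80 fragments in E21 replicate 1, 56 in P11 replicate 1 and 196 in P11 replicate 2. The P11 replicates thus differed from each other at this region, with folds of 7.02 and 19.3. A region on chromosome 9 from 8772928 to 8775050 was the widest of the named ones at 2123 bp. Its pileups were 71, 70 and 108 fragments in the same libraries, and its lone OCR in E21 replicate 1 spanned the whole region.

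Among members lacking P11 replicate 1, the region on chromosome 7 from 76590031 to 76590506 had pileups of 69 and 89 fragments in E21 replicates 1 and 2 and 52 in P11 replicate 2. A region on chromosome 8 from 86129415 to 86129719 had 73, 111 and 42 in the same libraries. At both, the lone P11 library was lowest in fragments, with ranks of 85.5 and 77.4. The background in all 3 libraries was at the library's lowest value.

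Among members lacking P11 replicate 2, the region on chromosome 4 from 65718503 to 65719154 had pileups of 129 and 163 fragments in E21 replicates 1 and 2 and 30 in P11 replicate 1. A region on chromosome 2 from 258838805 to 258839326 had 95, 89 and 37 in the same libraries. In both, the lone library had fewer than either E21 library, with folds of 5.85 and 7.17 against at least 11.6 at E21. These OCRs were 319 and 322 bp wide in P11 replicate 1, against 483 to 652 bp at E21.

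The middle of each class looked different. The member lacking E21 replicate 1 nearest the median mean rank lay on chromosome 8 from 75775448 to 75775980, with pileups of 37 fragments in E21 replicate 2, 27 in P11 replicate 1 and 17 in P11 replicate 2. In this region the lone library was the highest of the 3, at rank 51.9. The median member lacking E21 replicate 2, on chromosome 8 from 17086743 to 17087245, had pileups of 18 fragments in E21 replicate 1 and 22 and 31 at P11. The median member lacking P11 replicate 1, on chromosome 1 from 112699662 to 112699987, had 49 and 66 at E21 and 41 in P11 replicate 2. That region stood on a local background of 11.5 to 22.0 fragments, and its folds were only 2.92 to 3.37. The median member lacking P11 replicate 2, on chromosome 20 from 5344974 to 5345415, had 41 and 27 fragments at E21 and 29 in P11 replicate 1.

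Width was not used by the rule. The median member was 488 bp wide when E21 replicate 1 was absent and 444 bp when E21 replicate 2 was, against 425 and 412 bp when P11 replicates 1 and 2 were. P11-complete members were thus the wider ones, at 466 ± 31 against 418.5 ± 9.2 bp (SD, n = 2), and the classes did not overlap in the deposited lists. The difference of 47.5 bp had p = 0.333 by the exact two-sided permutation test over the 3 ways to pair 4 libraries, the smallest p it allows, and Benjamini-Hochberg adjustment over the 4 tests of this kind left each at 0.333. It was 25.5 bp without E21 replicate 1 and 69.5 bp without E21 replicate 2. All members had a median of 455 bp, regions called in all 4 libraries 709 bp and regions called in 1 library 217 bp. A merged region grows with the number of calling libraries, so the width of the OCRs themselves was also compared.

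Taken on single OCRs, the difference between the kinds was 44.25 bp (exact permutation p = 0.333). At matched rank it was smaller at the bottom of the list and larger at the top. With a mean rank of 40 to 60 in the complete stage, the median OCR was 353 bp in E21-complete and 399.5 bp in P11-complete members. In regions called in all 4 libraries the same ranks gave 422.5 bp by the E21 and 414 bp by the P11 libraries. E21-complete members thus had the narrowest OCRs of these 4 sets. From 80 to 100 the values were 558 bp in 268 E21-complete and 638 bp in 816 P11-complete members, against 791 and 790 bp in regions called in all 4. In the lone library the median OCR was only 262 bp in E21 replicate 2, 209 bp in E21 replicate 1, 252 bp in P11 replicate 2 and 237 bp in P11 replicate 1. Nearly all members, 96.4% to 97.8% of each class, held 1 OCR per calling library. Where OCRs were linked only by a reciprocal overlap of 50%, the difference in region width was 34 bp (exact permutation p = 0.667), and the classes overlapped.

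**Figure D4:**
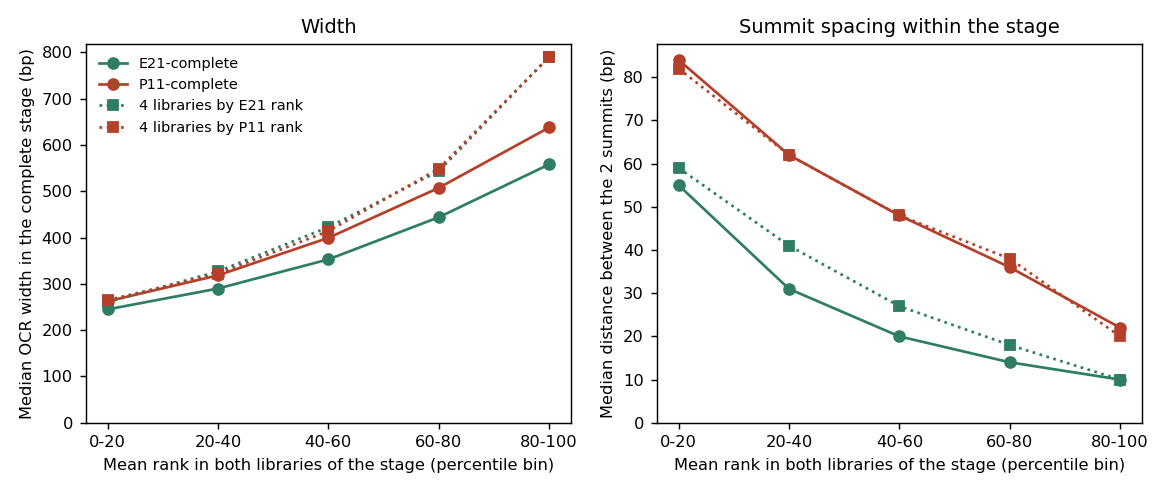
Median OCR width in bp (left) and median distance in bp between the summits of the 2 libraries of the complete stage (right), by mean rank percentile in that stage (horizontal axis, 5 bins). Solid lines are members and dotted lines are regions called in all 4 libraries, which were ranked by the E21 or the P11 libraries. In the bin from 40 to 60, summits lay 20 bp apart in E21-complete and 48 bp apart in P11-complete members.

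The summit is the base with the most fragments, and its agreement between libraries says how well a call is placed. Within the complete stage the median distance between summits was 24.5 ± 2.1 bp in E21-complete and 52.25 ± 0.35 bp in P11-complete members (SD, n = 2). Each kind rests on a single pair of libraries here, so the difference of 27.75 bp has no replicate check and was not tested. Regions called in all 4 libraries showed the same order, with 20 bp for the E21 pair and 37 bp for the P11 pair. The wider spacing at P11 was thus not particular to members. With a mean rank of 40 to 60, regions called in all 4 had 27 bp for the E21 pair and 48 bp for the P11 pair, against 20 and 48 bp in members.

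From the complete stage to the lone library the median summit distance was 49.4 ± 1.2 bp in E21-complete and 62.9 ± 2.3 bp in P11-complete members (exact permutation p = 0.333). The step from the within-stage to the lone distance was 24.9 ± 3.4 bp in E21-complete and 10.6 ± 2.7 bp in P11-complete members, a difference of −14.25 bp (exact permutation p = 0.333). This step contains the within-stage distance, which rests on 1 pair of libraries per kind, so its p has no replicate check. In regions called in all 4, distances across stages were 38 to 44 bp, against 20 bp within the E21 pair and 37 bp within the P11 pair. A larger step from the E21 pair was thus not particular to members. The OCR of the lone library overlapped the OCRs of both other libraries by at least 50% reciprocally in 52.4% and 44.1% of P11-complete members (lacking E21 replicates 1 and 2), and in 60.7% and 57.1% of E21-complete members (lacking P11 replicates 1 and 2). In regions called in all 4 libraries the same share was 79.6% and 75.3% for the first pair of classes and 77.4% and 76.7% for the other, so it was lower in members and did not separate the stages there.

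The absent library sometimes had an OCR close by. It had one within 1 kb of 18.8% of members lacking E21 replicate 1, 20.2% of those lacking E21 replicate 2, 19.9% of those lacking P11 replicate 1 and 21.4% of those lacking P11 replicate 2. The median distance to its nearest OCR was 4480, 3522, 4129 and 3419 bp in the same order. Among regions called in only 1 or 2 libraries and lacking the same library, the share was 17.9%, 21.8%, 21.2% and 22.5%. The shares of members were thus close to those of other regions that lacked the library.

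Position was compared by the distance to the nearest region called in all 4 libraries. Of members lacking E21 replicates 1 and 2, 29.0% and 29.4% lay within 3 kb of such a region, and of members lacking P11 replicates 1 and 2, 25.9% and 27.5%. The kinds did not overlap, at 29.2 ± 0.31% for P11-complete and 26.7 ± 1.1% for E21-complete members, and the difference was 2.52 percentage points (exact permutation p = 0.333). It fell to 1.13 points at the stricter −log10 q of 5 and to 1.32 with equal numbers of OCRs, and it turned to −1.44 with a fold of at least 4. The kinds overlapped at each of these settings. Over all regions the share was 26.3%, and over regions called in all 4 libraries it was 24.9%. The median distance was 6394 and 6259 bp for P11-complete and 7725 and 6726 bp for E21-complete members. Members of high rank lay farther out, with 17.9% of E21-complete and 18.8% of P11-complete members within 3 kb at a mean rank of 80 to 100, and 18.0% and 18.9% of the regions called in all 4.

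The nearest neighbour of a member was most often a region called in all 4 libraries, for 36.2% of E21-complete and 36.0% of P11-complete members, against 35.4% over all regions. A region called in both E21 libraries only was nearest to 9.01% of E21-complete and 6.52% of P11-complete members (7.39% over all regions). A region called in both P11 libraries only was nearest to 9.87% of E21-complete and 13.3% of P11-complete members (12.6% over all regions). Members thus lay beside regions of their own complete stage somewhat more often than members of the other kind did. Neighbours share libraries, so these shares are a description. The median gap to the nearest region was 2264 bp for E21-complete and 1828 bp for P11-complete members.

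Members made up 11.7% to 13.1% of the regions on each of the 20 numbered chromosomes. In windows of 1 Mb that held at least 20 members, they were 10.4% to 26% of the regions. P11-complete members were 45.5% of the members on chromosome 10 (95% Wilson interval 42.9 to 48.1%), 61.8% on chromosome 9 (59.1 to 64.3%) and 61.9% on chromosome 17 (59.0 to 64.7%), and between 51.9% and 57.3% on each of the others. These 3 chromosomes were chosen after their values were seen.

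**Figure D5:**
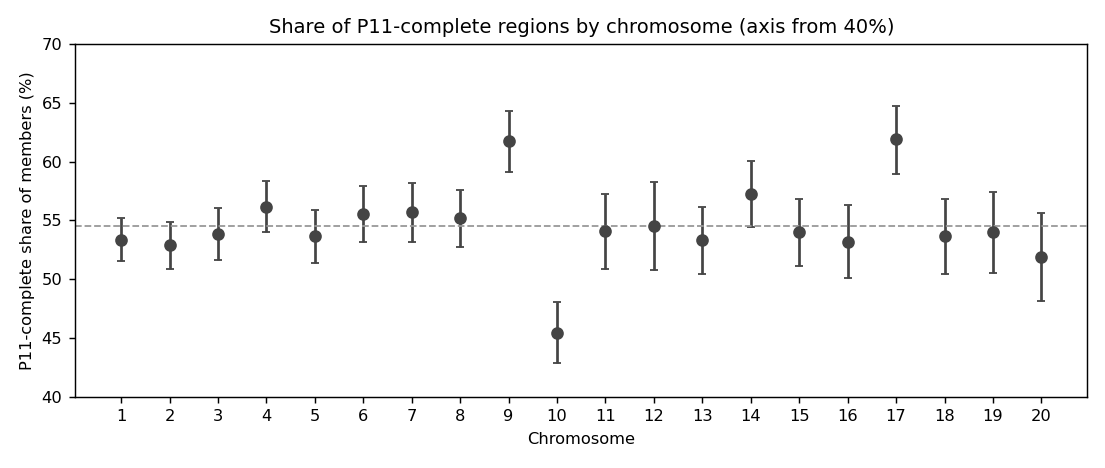
P11-complete members as a share of all members in percent (vertical axis, starting at 40%) on each numbered chromosome (horizontal axis). Points are shares, bars are 95% Wilson intervals that cover counting error only, and the dashed line is the share over all members, 54.5%.

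The tilt on chromosome 10 differed in size among the classes, and members lacking P11 replicate 1 lay close to the share of all regions. Chromosome 10 held 5.02% of all regions, but 4.41% of members lacking E21 replicate 1 and 2.78% of those lacking E21 replicate 2, against 5.19% and 7.35% of those lacking P11 replicates 1 and 2. Chromosome 9 held 4.88% of all regions, and 5.27% and 6.62% of the P11-complete classes against 4.09% and 3.97% of the E21-complete classes. On both chromosomes the 2 kinds did not overlap. In the same 1 Mb windows, 278 in all, the P11-complete share ran from 31.8% to 85.0%, with a median of 59.1%. The lowest share, 7 of 22 members, was found on chromosome 10 from 54000001 to 55000000. A window on chromosome 17 from 8000001 to 9000000 had the same numbers. The highest, 17 of 20, was found on chromosome 4 from 175000001 to 176000000. These ends were picked as extremes among many windows with few members, so their counting error is large and no tilt is read from them. The window with most members, 37, lay on chromosome 8 from 30000001 to 31000000, of which 26 were P11-complete.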

How the data were processed

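The 4 lists of OCRs, 1 per library, were analysed. The authors mapped reads and called OCRs in each library separately with the ATAC-seq Integrative Analysis Package, without pooling, and the submitters' processing notes name MACS2, Rnor_6.0 and rn6 with no role or version. For each OCR the deposited list gives a score, a fold enrichment at the summit, a −log10 p value, a −log10 q value and a summit. The deposited score was the −log10 q times 10, rounded down, in at least 99.99% of OCRs, and was not used further. The deposited limit was q = 0.01. No duplicate lines were found.

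OCRs were merged at 1 bp of overlap. Pileup and local background were solved from the deposited fold and −log10 p value, giving whole fragments (within 0.02) in 100% of OCRs. Members and alternatives were chosen with earlier results of these data known. Regions were named by the 2 highest mean ranks per class with a local background under 3 times the lowest, the rank nearest the median, and the weakest calls inside and outside the limit. Values per absent library were compared by the exact permutation test (smallest p 0.333), so no comparison could reach 0.05. The test planned for the member counts is not reported, since calls chose the members, nor that of the within-stage summit distance, which has 1 pair of libraries per stage. Scripts used Python 3.11.15, NumPy 2.4.6, pandas 2.3.3 and SciPy 1.17.1 and were tested on simulated data.

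Reads per region were not analysed here, so DESeq2 as in the study was not run. Positions are on the build of the lists. No genome or annotation of that build was used here, so start sites, genes, base composition and motifs were not analysed. Same-numbered libraries came from different litters and did not deviate together (correlation 0.0272 over 81097 regions).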

Additional observations from a re-analysis of the deposited data

Results flagged for a closer look

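Chromosome X lay outside the comparisons above. It held 4000 regions, of which 522 (13.1%) were called in exactly 3 libraries, a share close to that on the numbered chromosomes. Of these, 186 lacked E21 replicate 1, 43 lacked E21 replicate 2, 221 lacked P11 replicate 1 and 72 lacked P11 replicate 2. P11 replicate 1 was thus the library most often absent on X, while E21 replicate 1 was on the numbered chromosomes, and this difference was not tested. The lists held 8 to 10 OCRs on chromosome Y per library.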

How the results depend on the processing

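Under the other settings, 94 values kept their direction (counts within 1.5 times), though not always their size, 32 moved and 7 turned. No p could reach 0.05, so none could change its side of that threshold. Some of the 94 could not change by construction, such as most values of the replicate block, so the tally does not measure stability. The ratio of P11-complete to E21-complete members (1.20) was 0.998 with a −log10 q of at least 5, 0.684 with equal numbers of OCRs, 0.760 with a fold of at least 4 and 0.859 with a replicate block, and ran from 0.338 to 2.06 with single libraries left out. The difference in the share within 3 kb was −1.44 points with a fold of at least 4 and 1.73 to 3.31 with a library left out. P11-complete members numbered 8939 with equal numbers of OCRs and 8908 with a fold of at least 4. With a library left out, there were 14941 to 25922 members, 4856 to 12781 E21-complete and 2160 to 15301 P11-complete, since those lacking it are dropped. The calls of that library still defined the other members.

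The median complete-stage rank of E21-complete members (40.5) was 41.6 with equal numbers, 44.1 with a reciprocal overlap of 50%, 41.7 with a fold of at least 4, 41.6 by fold, 28.7 among members and 4-library regions only, and 37.2 to 46.5 with a library left out. That of P11-complete members (43.1) was 46.4 with reciprocal overlap, 28.3 among members and 4-library regions, and 41.2 to 46.4 with a library left out. The lone rank of E21-complete members (25.9) was 23.5 with a −log10 q of at least 5, 22.8 with equal numbers, 32.3 with reciprocal overlap, 29.2 by fold and 13.6 among members and 4-library regions. That of P11-complete members (17.9) was 28.6 with reciprocal overlap and 10.4 among members and 4-library regions. The rank gap of E21-complete members (13.8) was 15.5 with a −log10 q of at least 5, 16.8 with equal numbers, 10.1 with reciprocal overlap, 11.4 by fold, and 9.87 to 18.5 with a library left out. That of P11-complete members (22.8) was 15.1 with reciprocal overlap, 15.8 among members and 4-library regions, and 21.9 to 24.7 with a library left out. The causes were not tested.

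The replicate block compared same-numbered libraries. Besides the ratio it moved no value, and its smallest p is 0.5. A lone rank and its gap have no value without that lone library, and the step in summit distance has none without any library. Other windows around start sites, protein-coding genes only and 200 bp windows for base composition were not run. Depth limits what absence means: a region absent from a list may still hold fragments under the limit. That limit was 13 to 14 fragments at the summit at its lowest, and more over a higher local background. The chromosome 2 member with the weakest call had 18 fragments over a background of 7.43 in P11 replicate 2, at a −log10 q of 2.01. Reads per region were not analysed here. With 2 libraries per stage no p here shows that the stages differ or that they do not.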
